A study of Mus musculus with 4 samples.

Results

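The genes described here are 4 secreted neurotrophic factors, Bdnf, Ntf3, Gdnf and Cntf, and 5 receptors, Ngfr, Ntrk2, Ntrk3, Gfra1 and Ret. They were chosen by their gene symbol, and all 9 are among the 50593 genes of the table. RNA was sequenced from whole sciatic nerve of mice that were 6 months old, of strain 129S1/SvImJ. HSF V30M mice carry the human TTR V30M transgene, lack the endogenous Ttr gene and have a heterozygous deletion of Hsf1, and HSF WT mice have the same heterozygous Hsf1 deletion without the transgene. The labels list 2 mice in each group. The promoter of the transgene is not given in the sources used here.

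Neurotrophins such as brain-derived neurotrophic factor and neurotrophin-3 are small secreted dimers that keep neurons alive and guide their axons. They act through Trk receptor tyrosine kinases and through p75, a receptor shared by the whole family. Glial cell line-derived neurotrophic factor (GDNF) binds the membrane-anchored GFRalpha1, which then engages the tyrosine kinase Ret. Ciliary neurotrophic factor (CNTF) is kept inside myelinating Schwann cells and acts, once released, through the CNTF receptor, the LIF receptor and gp130. In nerve, Schwann cells, fibroblasts and muscle make the factors, and the axons and Schwann cells carry the receptors.

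Each gene has 1 value per group, in fragments per kilobase of transcript scaled to the sequenced fragments (FPKM), pooled by Cuffdiff over the libraries of the group. Without values for single mice, neither their spread nor a test between the groups can be given. The interval beside a value or a fold is a 95% exact interval for counting error, from the number of fragments that the FPKM stands for, and it does not cover differences between mice. A gene was counted as past the fold when its ratio exceeded 1.5 on the scale of FPKM + 1 and its mean FPKM over both groups reached a minimum of 1. Log2 ratios are on that scale. Below, V30M-labelled nerve stands for the HSF V30M group and WT-labelled nerve for the HSF WT group, and each ratio is of the former over the latter. FPKM is scaled to transcript length, so levels can be compared between genes.

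The genotypes were checked on the genes they alter. Hsf1, which encodes heat shock factor 1, stood at 7.94 FPKM in V30M-labelled and 15.0 in WT-labelled nerve, although both groups carry 1 deleted copy. Mouse Ttr, null by design in HSF V30M, stood at 6.10 FPKM in V30M-labelled nerve and is listed at 0 in WT-labelled nerve. Read as mouse Ttr, the value in V30M-labelled nerve goes against the stated alleles. However, V30M mice also carry the human transgene, and reads of both cannot be told apart in these values. Every direction below is therefore given by the label. Markers of myelinating Schwann cells were abundant in both groups, with a summed FPKM over 10 genes of 13205 in V30M-labelled and 11708 in WT-labelled nerve. Of 15 markers of sensory and motor neurons, 8 were under the minimum, among them the transcription factor Isl1, listed at 0 in V30M-labelled nerve and at 0.0415 in WT-labelled nerve, which stands for 1 to 2 fragments.

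Cntf was by far the most abundant of the 9 genes, and the other 3 factors were scarce. The receptors lay between them, led by Gfra1 and Ngfr. Over the 7 genes that reached the minimum, 4 were higher and 3 lower in V30M-labelled nerve, and the median log2 ratio was 0.25, where all 15620 genes with that minimum had a median of 0.00. Of these 7 genes, 1 was past the fold, Ntf3, which was lower. Among all genes with that minimum, 16.7% were past the fold in either direction, 8.22% higher and 8.44% lower. The members' count of 1 of 7 is near that background. Bdnf and Gdnf were under the minimum and are described by their fragments. The counting intervals of the groups lay apart for the 7 genes that reached the minimum. They also lay apart for 36.0% of the 13991 genes at that minimum whose shortest transcript has at least 400 bases, and since the intervals narrow with the number of fragments and leave out differences between mice, nothing is read from the members' count.

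**Figure D1:**
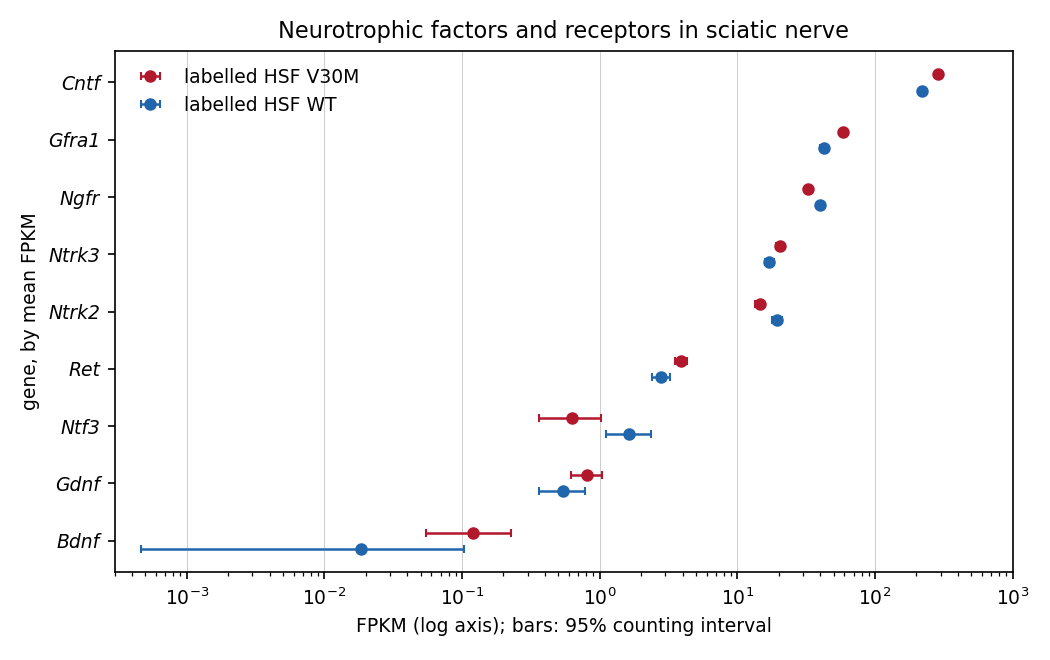
FPKM of the 9 genes (log axis) in V30M-labelled (red) and WT-labelled (blue) nerve, ordered by mean FPKM. Each point is the pooled value of a group and each bar the 95% counting interval, which leaves out differences between mice. The bars of both groups lie apart for Ntf3, Ret and the 5 genes above them, and overlap for Gdnf and Bdnf. Such intervals also lay apart for 36.0% of the 13991 genes at the minimum whose shortest transcript has at least 400 bases, so nothing is read from this count.

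Cntf (ENSMUSG00000079415) is on chromosome 19, minus strand, from 12763660 to 12765632 in GRCm38 coordinates, which are used throughout, and has a single annotated transcript 1073 bases long. It reached 288 FPKM in V30M-labelled nerve, standing for 5462 to 6463 fragments, and 220 in WT-labelled nerve, standing for 2967 to 3999. That put it above 99.4% and 99.1% of the protein-coding genes in the respective groups. The fold was 1.31 (1.25 to 1.37), or a log2 ratio of 0.38, and 39.6% of the 797 genes in its level class, of 100 FPKM and more, had a larger ratio in either direction. In that class 27.1% of the genes were past the fold. Cntf was thus higher in V30M-labelled nerve beyond counting error but not past the fold.

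The Cntf value depends on how reads were divided with the neighbouring gene. Zfp91, which encodes a zinc finger protein, lies upstream on the same strand, and its annotated read-through transcript ENSMUST00000142247.7 runs on into Cntf and covers 847 of the 1073 bases of the Cntf transcript, or 78.9%. Of the 1024 distinct stretches of 50 bases in the Cntf transcript, 799 also occur in Zfp91 transcripts. Zfp91 itself stood at 26.5 FPKM in V30M-labelled and 22.9 in WT-labelled nerve. The share of Cntf reads that belongs to the read-through transcript is therefore uncertain.

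Ntf3 (ENSMUSG00000049107), which encodes neurotrophin-3, the preferred ligand of TrkC, lies on the minus strand of chromosome 6 from 126101412 to 126166910. It stood at 0.63 FPKM in V30M-labelled and 1.65 in WT-labelled nerve, or 16 to 21 fragments against 29 to 44. It was 2.61-fold higher in WT-labelled nerve (1.37 to 5.15), a log2 ratio of -0.70. In its level class, from 1 to under 5 FPKM, 22.6% of the 5415 genes were past the fold, and 17.6% had a larger ratio in either direction than Ntf3. The mean FPKM of Ntf3 was 1.14, just over the minimum.

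Muscle is a known source of Ntf3, and most markers of skeletal muscle also had lower values in V30M-labelled nerve. So did most markers of B cells, T cells, adipocytes, macrophages and epineurial fibroblasts, described below. All 8 of the 10 listed skeletal muscle markers that reached the minimum were past the fold, with lower values in V30M-labelled nerve. The listed muscle markers under the minimum lay on both sides of equal levels. The summed FPKM of the 10 was 48.6 in V30M-labelled and 170 in WT-labelled nerve, with Ckm, the muscle creatine kinase, at 8.97 and 43.8. The part of muscle tissue in the Ntf3 difference was not tested. In such whole-nerve samples fewer cells of a type and less RNA per cell cannot be told apart.

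Gdnf (ENSMUSG00000022144), on the plus strand of chromosome 15 from 7810846 to 7837575, encodes the ligand of Gfra1 and Ret. It stood at 0.81 FPKM in V30M-labelled and 0.541 in WT-labelled nerve, which stand for 61 to 72 and 29 to 39 fragments on its single transcript of 3674 bases. The fold of 1.498 (0.948 to 2.42) had a counting interval that includes equal levels. By listed value, Gdnf and Ntf3 exchanged places between the groups, but their order was beyond counting error in WT-labelled nerve only. Ntf3 was 3.05 times Gdnf in WT-labelled nerve, with intervals apart, and 0.778 times Gdnf in V30M-labelled nerve, with intervals that overlap.

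Bdnf (ENSMUSG00000048482), on the plus strand of chromosome 2 from 109674700 to 109727007, was the scarcest of the 9 genes. Its 11 coding transcripts are 3707 to 4266 bases long. An FPKM of 0.12 in V30M-labelled nerve stands for 9 to 13 fragments, and one of 0.0184 in WT-labelled nerve for 1 to 2. The ratio was 6.50 with a counting interval from 0.901 to 285, so a difference was not detectable at this depth. On the scale of FPKM + 1 the log2 ratio was 0.14.

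Ngfr (ENSMUSG00000000120) encodes p75, the receptor shared by all neurotrophins, and in nerve it marks Remak and immature Schwann cells. It lies on the minus strand of chromosome 11 from 95568818 to 95587735, with a single transcript 3446 bases long. It stood at 32.7 FPKM in V30M-labelled nerve, or 2306 to 2729 fragments, and 40.0 in WT-labelled nerve, or 2001 to 2697. It was 1.22-fold higher in WT-labelled nerve (1.15 to 1.30), a log2 ratio of -0.28. In its level class, of 20 to under 100 FPKM, 36.3% of the 3428 genes had a larger ratio in either direction.

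Ntrk2 (ENSMUSG00000055254) encodes TrkB, the receptor of BDNF, and Ntrk3 (ENSMUSG00000059146) encodes TrkC. Both genes also make truncated receptors without the kinase domain, and the table adds all isoforms of a gene. Ntrk2, on the plus strand of chromosome 13 from 58806569 to 59133970, stood at 14.6 FPKM in V30M-labelled and 19.4 in WT-labelled nerve, and was 1.33-fold higher in the latter (1.19 to 1.49). Ntrk3, on the minus strand of chromosome 7 from 78175959 to 78738012, stood at 20.45 and 17.1, and was 1.198-fold higher in V30M-labelled nerve (1.09 to 1.32). The log2 ratios were -0.39 and 0.25, and neither gene was past the fold. Of the genes of their level class, from 5 to under 20 FPKM, 12.9% were past it. The pair thus lay on opposite sides of equal levels.

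By listed value, the order of the 2 Trk receptors differed between the groups, but it was beyond counting error in V30M-labelled nerve only. Ntrk3 was 1.40 times Ntrk2 in V30M-labelled nerve, with counting intervals apart, and 0.881 times Ntrk2 in WT-labelled nerve, where the intervals overlapped. Ngfr was above both in each group, at 2.25 times Ntrk2 in V30M-labelled nerve and 2.06 times in WT-labelled nerve. The coding transcripts of Ntrk2 are 2284 to 8744 bases long and those of Ntrk3 are 2678 to 19703. Their fragment numbers are accordingly loose, from 659 to 3198 for Ntrk2 and from 1101 to 10253 for Ntrk3 in V30M-labelled nerve. A shift between long and short isoforms was not analysed here.

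Gfra1 (ENSMUSG00000025089), which encodes the GDNF-binding co-receptor, was the most abundant receptor of the set. It lies on the minus strand of chromosome 19 from 58235604 to 58455909. It stood at 58.9 FPKM in V30M-labelled nerve, or 2224 to 6727 fragments, and 42.6 in WT-labelled nerve, or 1142 to 3937. The fold was 1.38 (1.29 to 1.49), and the log2 ratio of 0.46 was the highest among the members that passed the minimum. It stayed short of the fold, which 11.3% of the 3428 genes of its level class passed, and 17.4% of that class had a larger ratio in either direction. In WT-labelled nerve, Gfra1 and Ngfr had overlapping intervals, while Gfra1 was 1.80 times Ngfr in V30M-labelled nerve.

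Ret (ENSMUSG00000030110), the signalling kinase of the GDNF receptor, lies on the minus strand of chromosome 6 from 118151745 to 118197718. It was far scarcer, at 3.91 FPKM in V30M-labelled nerve, or 365 to 528 fragments, and 2.81 in WT-labelled nerve, or 186 to 307. The fold was 1.39 (1.16 to 1.67), with a log2 ratio of 0.37, and 39% of the 5415 genes of its level class had a larger one in either direction. Gfra1 exceeded Ret by 15.1-fold in V30M-labelled nerve and by 15.2-fold in WT-labelled nerve, so both receptor components were higher in the former by nearly the same factor.

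**Figure D2:**
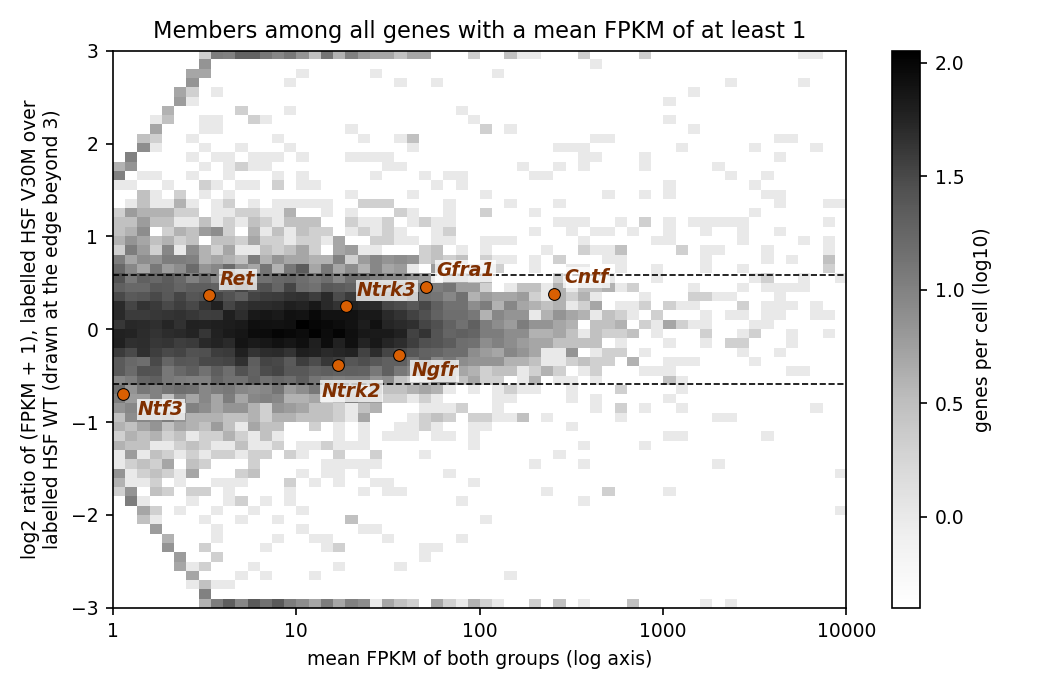
Log2 ratio of (FPKM + 1), labelled HSF V30M over labelled HSF WT, against mean FPKM (log axis). Grey cells count the genes that reached the minimum (log10 shading, ratios beyond 3 drawn at the edge, slanted edges being genes listed at 0 in a group), dashed lines mark 1.5-fold, and orange points are the 7 members that passed the minimum, of which Ntf3 alone lies outside the lines.

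Reads of related members can be told apart where their sequences differ, and the longest identical runs of coding sequence within each pair were short. They are shown because the directions of Ntrk2 and Ntrk3 differ and because GFRalpha1 and GFRalpha2 are close relatives. The runs, 5′ to 3′ on the coding strand from GENCODE transcripts of GRCm38, were 23, 17 and 28 bases long.
Ntrk2 and Ntrk3: gacccactcatcatggtctttga
Bdnf and Ntf3: atagacacttcctgtgt
Gfra1 and Gfra2: actgccgctgcaagcggggcatgaagaa

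The Trk run lies in exon 15 of the Ntrk2 transcript ENSMUST00000079828.6 on chromosome 13 from 59054407 to 59054429 and in exon 14 of the Ntrk3 transcript ENSMUST00000039431.13 on chromosome 7 from 78250737 to 78250759. The neurotrophin run is in the coding exon of both genes, on chromosome 2 from 109724105 to 109724121 for Bdnf and on chromosome 6 from 126101760 to 126101776 for Ntf3. The GFRalpha run is in exon 3 of Gfra1, on chromosome 19 from 58453214 to 58453241, and in exon 2 of Gfra2, on chromosome 14 from 70896006 to 70896033. No stretch of 50 bases of Ntf3, Gdnf or Ret occurred in transcripts of another gene, and for Ngfr, Ntrk2 and Ntrk3 the share was at most 0.854%. In Gfra1, 370 of 5423 stretches overlapped the antisense gene Gm16277, which is listed at 0 in V30M-labelled and at 0.0174 in WT-labelled nerve. In Bdnf, 800 of 6294 overlapped the antisense gene Gm45346, listed at 0 in both. Whether the libraries kept the strand is not given in the sources used here, so sense and antisense reads cannot be told apart.

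Ntf5, which encodes neurotrophin-4, another ligand of TrkB, stood at 0.08 FPKM in V30M-labelled and 0.0367 in WT-labelled nerve, or at most 4 fragments. The neurotrophin co-receptor sortilin, encoded by Sort1, had 42.9 and 37.0, and its relative Sorcs1 had 29.35 and 22.6. Beside the members, 9 other neurotrophin receptor and co-receptor genes were listed. All 7 of these that reached the minimum had higher values in V30M-labelled nerve, by log2 ratios of 0.05 to 0.36. None was past the fold. Of all 15620 genes with that minimum, 7876 had higher values in V30M-labelled nerve. Among the neurotrophin receptors of the members, Ngfr and Ntrk2 had lower values and Ntrk3 a higher one.

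The other GDNF family ligands were scarce. Nrtn, encoding neurturin, stood at 0.11 FPKM in V30M-labelled nerve, or 2 fragments, and is listed at 0 in WT-labelled nerve, where 3 fragments would have given 0.236. Artn, encoding artemin, had 0.81 and 0.927. Of the alternative co-receptors, Gfra2 had 15.5 in V30M-labelled and 13.99 in WT-labelled nerve, while Gfra3 had 1.08 and 0.619 and was under the minimum. Gfra4, the persephin co-receptor, was past the fold and lower in V30M-labelled nerve, at 1.27 against 2.44, though the counting interval of its fold, 0.207 to 1.26, includes equal levels. Sdc3, encoding syndecan-3, a heparan sulphate proteoglycan that binds GDNF, was past the fold and higher, at 89.35 against 51.8, a fold of 1.73 (1.66 to 1.79).

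Receptors of the CNTF pathway had similar listed values in both groups, with log2 ratios from -0.17 to 0.25. Cntfr, encoding the binding subunit, stood at 28.9 FPKM in V30M-labelled and 27.3 in WT-labelled nerve. Lifr had 20.9 and 19.1, and the gp130 gene Il6st had 147 and 166. The counting interval of the Il6st fold, 0.119 to 6.63, is wide, as its shortest coding transcript has 201 bases. None of the 6 receptor genes was past the fold, nor was any of the 6 gp130 signalling genes. Among all genes with the minimum 16.7% were past it, so with 6 genes in a list nothing is read from these counts. Among related ligands, Clcf1, encoding cardiotrophin-like cytokine, was past the fold and higher in V30M-labelled nerve, at 4.64 against 2.42, a fold of 1.92 (1.42 to 2.62).

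Among the pathway genes that reached the minimum, the largest ratio belonged to Serpine2, which encodes protease nexin-1, an inhibitor of thrombin and plasminogen activators. It stood at 99.2 FPKM in V30M-labelled and 43.5 in WT-labelled nerve, a fold of 2.28 (2.15 to 2.43). The matrix metalloproteinases Mmp9 and Mmp3 were past the fold and lower in V30M-labelled nerve, Mmp9 at 5.12 against 8.37 and Mmp3 at 3.38 against 6.10. The convertase gene Furin, which cleaves neurotrophin precursors, had 23.05 and 28.1. Over all 95 pathway genes listed beside the members, 74 reached the minimum, and 3 of these were past the fold and higher and 3 lower. That is 8.11%, against 16.7% of all genes, and the median log2 ratio was 0.04. These shares are not matched for level. Of the 74 pathway genes, 59 had a mean of at least 5 FPKM, against 10205 of the 15620 genes. At that minimum 3 of the 59 were past the fold, against 13.5% of all genes.

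Among the genes that reached the minimum, none was past the fold in 17 of 18 listed adaptors of Trk and p75, 4 of 7 adaptors of Ret and all 11 transcripts known to be induced by Trk and Ret signalling. Dok6, a Ret adaptor under the minimum, had 0.34 FPKM in V30M-labelled and 1.12 in WT-labelled nerve, a log2 ratio of -0.66, and was 3.29-fold higher in the latter (2.49 to 4.39). For the induced transcripts the median log2 ratio was 0.07. Etv5, a transcription factor induced by GDNF in other tissues, stood at 7.69 FPKM in V30M-labelled and 7.60 in WT-labelled nerve. Egr2, which is also a master regulator of myelination, had the highest ratio of the list, at 102 against 74.2. Of 5 other trophic proteins that reached the minimum, 4 had lower values in V30M-labelled nerve, Ptn, encoding pleiotrophin, at 9.81 against 14.9, and none was past the fold.

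**Figure D3:**
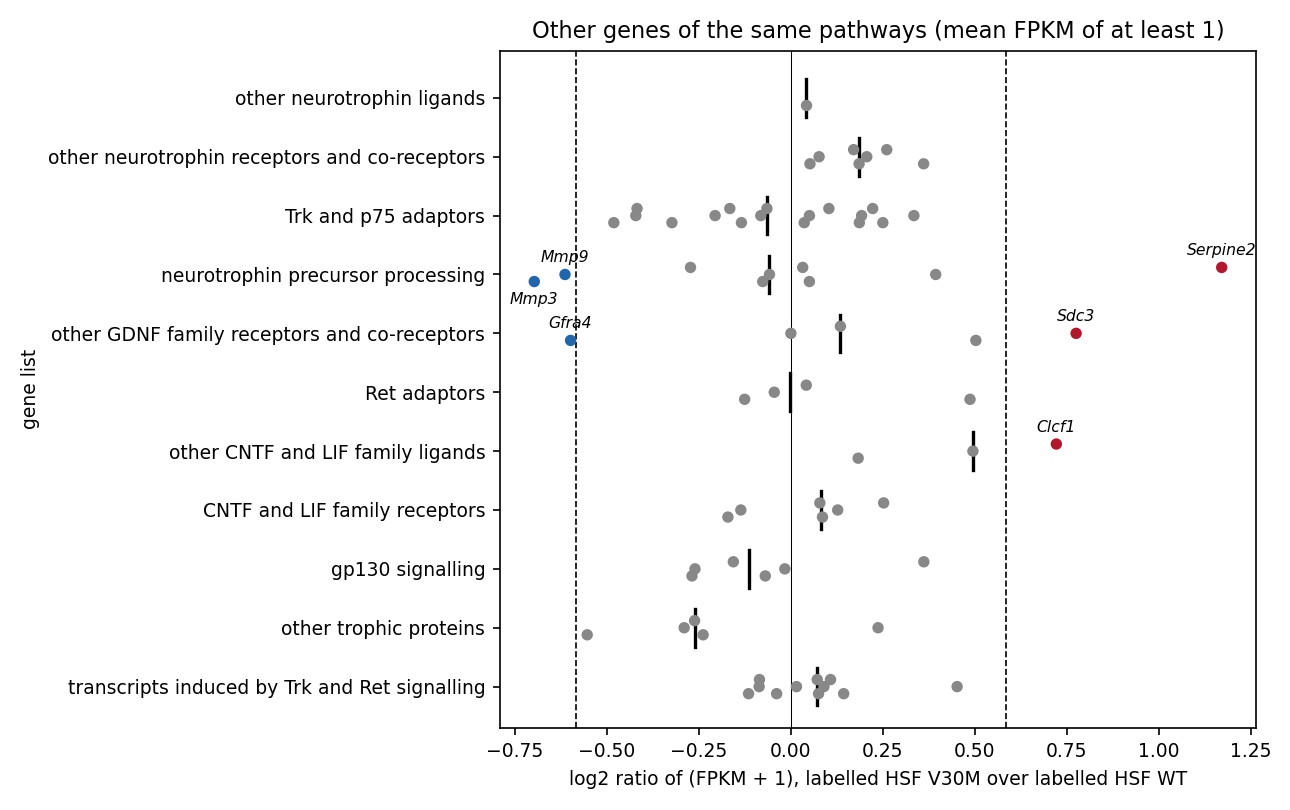
Log2 ratio of (FPKM + 1), labelled HSF V30M over labelled HSF WT, for pathway genes that reached the minimum, by list. Points are genes, black bars the median of a list and dashed lines 1.5-fold. Serpine2, Sdc3 and Clcf1 lie above the fold (red), and Mmp3, Mmp9 and Gfra4 below it (blue).

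Marker lists of the cell types in the nerve differed in how far they moved. The markers of myelinating Schwann cells, which make Cntf, had no gene of 10 past the fold and a median log2 ratio of 0.07. The markers of Remak Schwann cells, which make Ngfr, had a median of 0.03 over 10 genes, with Cdh2 past the fold and higher and Gfap past it and lower. Endoneurial fibroblast markers had a median of 0.23 over 8 genes, with Wif1 past the fold and higher and Cdkn2a past it and lower. Epineurial ones had a median of -0.61 over 10, of which 5 were past the fold and lower. Endothelial markers had a median of 0.27 over 10 genes, with Vwf and Cldn5 past the fold and higher. Of 7 neuron markers that reached the minimum, 5 were higher and 2 lower in V30M-labelled nerve. Their log2 ratios ran from -0.43 to 1.08, with a median of 0.34. Among these 7, Uchl1, an abundant axonal hydrolase, and Rbfox3 were past the fold and higher, with Uchl1 at 87.0 FPKM against 43.4. Pericyte and smooth muscle markers had 2 of 10 past the fold in each direction, and perineurial markers 2 of 10 higher and 1 lower. The part of these cells in the members' ratios was not tested.

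Markers of blood and surrounding tissue differed more. All 6 B cell and all 4 T cell markers that reached the minimum, of 10 listed for each, were past the fold, with lower values in V30M-labelled nerve. Of 9 adipocyte markers 3 were past it and lower, and the summed FPKM of the listed genes was 2762 against 3737. Of 10 macrophage markers, 3 were past it and lower. Neutrophil markers were higher for 6 of 7 genes past the fold, Csf3r being lower, and 6 of 8 erythroid markers were past it and higher. Their part in the members' ratios was not tested.

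**Figure D4:**
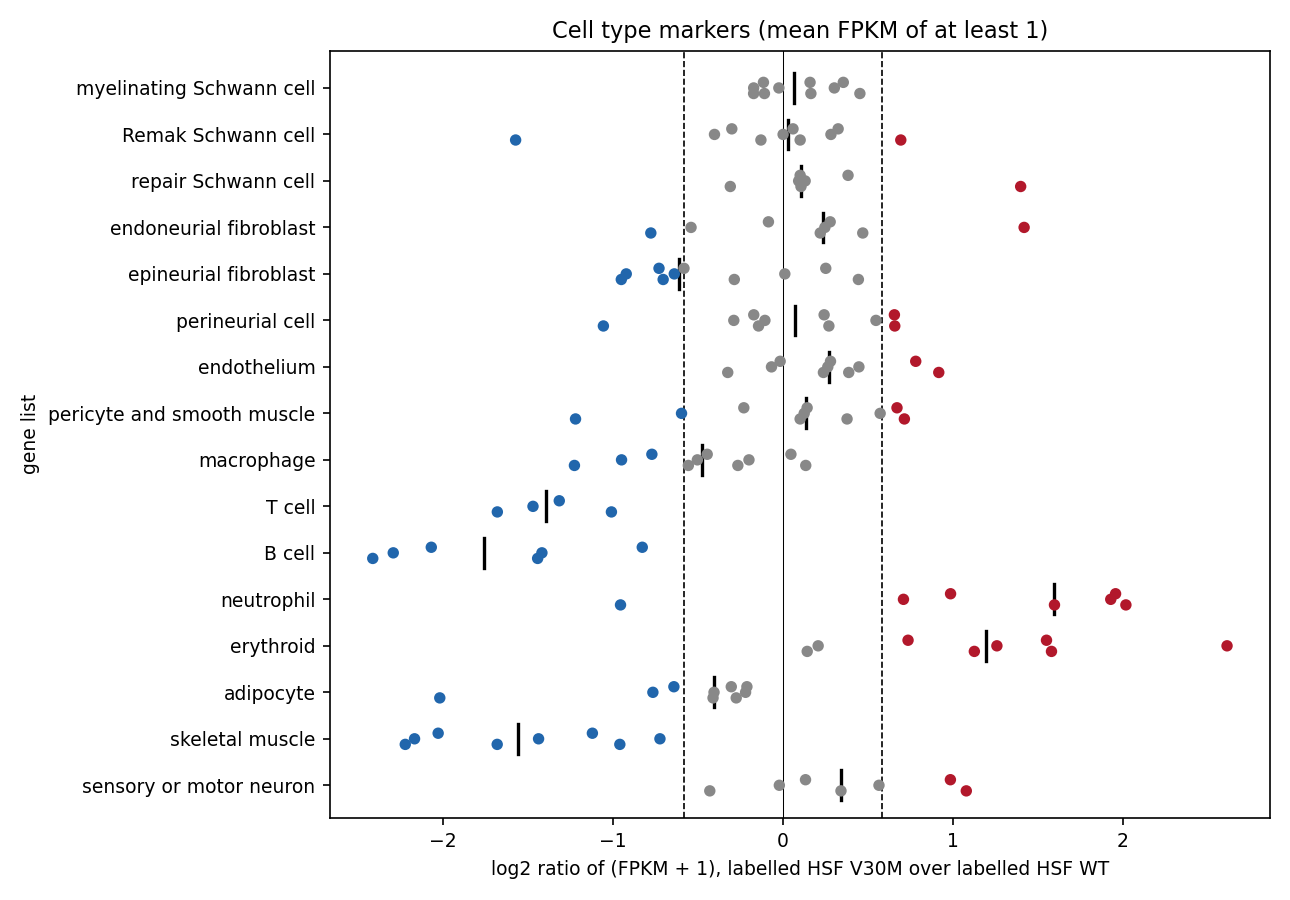
Log2 ratio of (FPKM + 1), labelled HSF V30M over labelled HSF WT, for cell type markers that reached the minimum, by list. Points are genes, black bars the list's median and dashed lines 1.5-fold. The skeletal muscle, B cell and T cell markers all lie below the fold, and no myelinating Schwann cell marker lies past it.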

How the data were processed

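The authors had Ion Torrent libraries of sciatic nerve sequenced and aligned to GRCm38. The labels' processing notes name STAR, Cufflinks and Cuffdiff, whose versions are not given in the sources used here. The authors deposited 1 Cuffdiff table with an FPKM per gene and group, in decimal commas, in which the sample codes A and G match the mouse numbers in the labels. The labels name 2 mice for each genotype, and the methods state n = 4 sciatic nerves without saying whether per group or in total. The deposited log2 fold changes, test statistics, p-values and q-values are the authors' own comparison and were not used. The 23 genes without an estimate were left out.

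From the FPKM values, ratios were taken as log2(FPKM + 1), and a ratio over 1.5-fold with a mean FPKM of at least 1 was counted. FPKM times length less 200 bases fell on steps, which give the worth of 1 fragment in each library: 0.0481 and 0.0648 in HSF WT, and 0.0389 and 0.0460 in HSF V30M. Of 974 HSF WT values of up to 1 fragment on 17278 single-transcript genes, filtered to at least 400 bases, 98% lay within 0.2% of a step. The 200 bases and the HSF WT steps were fitted to these same values. HSF V30M values are listed to 2 decimals and had no such check, so fragment numbers of low HSF V30M values carry that rounding. The shallower library of a group was thus 1.35-fold (HSF WT) and 1.18-fold (HSF V30M) less deep. Fragment ranges run from the shortest coding transcript with the larger worth of 1 fragment to the longest with the smaller worth. The 95% intervals (exact Poisson for a level, exact binomial for a fold) use the lowest number and cover counting error only. The recovery of the worth of 1 fragment and the fold counts were tested on simulated data. For the fold counts these had a mean of at least 5 FPKM, changes well over 1.5-fold and counting error only. They do not cover genes near the minimum, such as Ntf3, or differences between mice. Transcripts and coordinates are from GENCODE M21, which lacks 224 of the gene identifiers. Computations ran in Python 3.11.15 (scipy 1.17.1, pandas 2.3.3, numpy 2.4.6; figures: matplotlib 3.10.9).

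The members and lists were chosen with earlier results of these data known. Genes named are the members, their direct ligand and receptor partners, pathway genes past the fold, Hsf1 and Ttr, and markers chosen from the highest of a list or those past the fold. Other genes were named after their values were seen, namely the pathway genes Sorcs1, Furin, Etv5, Egr2, Ptn and Dok6 and the neuron marker Isl1. With 2 values per gene, likeness of pattern to a member could not be ranked. A few genes of the lists are not reported here by name. Alternatives were the pseudocount, scaling, fold and minimum.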

Additional observations from a re-analysis of the deposited data

How the results depend on the processing

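With 1 value per group, no replicate could be left out. No paired analysis was possible because every gene has 1 value per group and none per mouse. The 1 member past the fold, Ntf3, was the only one under pseudocounts of 0.1 or none, without a minimum and with all 3 scalings, of which the one by myelinating Schwann cell markers was chosen after seeing the data. The number was 0 with a fold over 2 on the same scale and 0 with a minimum of 5 FPKM, where 5 members are left. Pathway genes past the fold numbered 6, then 1 with a fold over 2 and 3 with the minimum of 5, and all genes numbered 2603, then 1237 and 1378. The last settings are stricter by construction. The members' median log2 ratio stayed between 0.18 and 0.27 under these alternatives. Of 68 recomputed ratios of single members, none changed sign, but only the scalings could have changed one. The fold and the minimum leave a ratio as it is, and the pseudocount keeps its sign. Of the 68, 1 moved beyond its counting interval, that of Cntf, to 0.32 with scaling by myelinating Schwann cell markers. The log2 ratio of Bdnf ran from 0.13 to 2.70 with the pseudocount and scaling. Depth limits Bdnf, Nrtn and Ntf5, whose values stand for few fragments.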

Other observations

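Schwann cell genes outside the neurotrophic pathways included large ratios in both directions. Shh, a morphogen that injured Schwann cells switch on, stood at 17.25 FPKM in V30M-labelled and 5.92 in WT-labelled nerve, a fold of 2.91 (2.53 to 3.37). Of the 7 repair Schwann cell markers that reached the minimum, Shh alone was past the fold. Jun, the transcription factor of the same programme, had 37.6 and 34.2. Gfap, an intermediate filament protein of Remak Schwann cells, had 2.28 in V30M-labelled and 8.77 in WT-labelled nerve, 3.85-fold higher in the latter (3.11 to 4.78). These genes were singled out after their values were seen, and no test between mice was possible.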
